A study of Mus musculus with 4 samples.

Results

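The genes described here build, break down and read cyclic AMP (cAMP), the second messenger made when a stimulatory G protein is switched on. They are 41 of the 54532 genes counted in the series: 3 G protein alpha subunits, 5 adenylyl cyclases, 2 catalytic and 4 regulatory subunits of protein kinase A (PKA), 10 phosphodiesterases, 2 Epac exchange factors, 7 A-kinase anchoring proteins, 4 transcription factors of the CREB family and 4 coactivators. They were taken by gene symbol from a list of the pathway. The rule names no measured value, but the list was chosen with earlier results of these data known. Each symbol was found in the tables. The cells came from the spleen of newborn C57BL/6 mice and are labelled PMN-MDSC, for polymorphonuclear myeloid-derived suppressor cells: immature relatives of neutrophils that hold T cells in check. One group of 2 libraries came from cells kept for 5 days with NECA, a stable analogue of adenosine that activates adenosine receptors, and the other group of 2 libraries from cells kept with the solvent, DMSO. Both groups share strain, age, tissue and cell type, and no genetic change is given for either. The labels do not say how the cells were purified, whether animals were pooled, or whether replicates are separate animals or cultures, so the p-values measure only the spread between these libraries, which may be technical.

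Adenosine receptors pass their signal through G proteins: the receptors encoded by Adora2a and Adora2b couple to the stimulatory subunit, which activates adenylyl cyclase, and those encoded by Adora1 and Adora3 to inhibitory subunits, which restrain it. The cAMP formed releases the catalytic subunits of PKA from their regulatory subunits, and the freed kinase phosphorylates many proteins, among them the transcription factor CREB. Phosphorylated CREB recruits the coactivator CBP and, with the CRTC coactivators, drives genes that hold a cAMP response element in their promoter, while phosphodiesterases end the signal by cleaving cAMP. In neutrophils, a rise in cAMP is known as a brake on adhesion, the oxidative burst and degranulation.

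Total counts were 18712625 and 15864120 in NECA replicates 1 and 2, and 18583918 and 18492030 in DMSO replicates 1 and 2. The neutrophil label held: 12 neutrophil markers, among them Ly6g, S100a8 and Ltf, summed to 136983 and 137897 CPM (counts scaled to the TMM-adjusted size of each library) in the NECA libraries and 123120 and 128671 CPM in the DMSO libraries. RNA of other cells was present in both groups and lower with NECA. Markers of macrophages (12 genes) summed to 207 and 159 CPM in the NECA libraries against 537 and 478 CPM in the DMSO libraries, and 11 of the 12 passed the test as lower. Markers of B cells (10 genes) summed to 79.8 and 14.0 against 148 and 156 CPM, those of erythroid cells (10 genes) to 341 and 19.6 against 1181 and 487 CPM, and those of T and NK cells (10 genes) to 17.8 and 17.9 against 26.2 and 31.3 CPM. Of these 3 lists, 1 B cell marker passed the test as lower, and only 5 of the 10 T and NK markers had enough counts to test. Ebf1 was at 0 in NECA replicate 2. Cd3e, Klrb1c and Ncr1 were at 0 in both NECA libraries, Ncr1 also in DMSO replicate 2. The part of these cells in the values of the cAMP genes was not tested. In such bulk samples, fewer cells of a type and less RNA per cell cannot be told apart.

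CREB binds the palindrome TGACGTCA, the full cAMP response element, and less tightly a shortened core, TGACGT. These letters were searched on both strands in the 300 bases around each start site, 250 before it and 50 after it, in promoter sequences from RefSeq (mouse build GRCm38.p6). Windows were found for 34 of the 41 genes (67 windows, since a gene can have several start sites). Adcy6, Akap12, Crem, Crtc2, Gnai2, Pde3b and Pde7a had no entry. The full element stood in 2 windows, both of Prkar1a and holding the same copy, or 2.99% of the windows, against 1.79% of all 32851 windows. The core, which the full element contains, stood in 7 windows (10.4%) of 6 genes, against 7.51% of all windows. By gene, it stood in 17.6% of the 34, against 8.37% of all 27025 genes with windows. Windows per gene differ, with 67 for the 34 genes and 32851 for the 27025. The 6 are shown because they are the genes of the machinery whose windows hold the letters that CREB binds; whether it binds there was not measured. Capitals mark the element, and the reverse strand of the core reads ACGTCA:
Prkar1a: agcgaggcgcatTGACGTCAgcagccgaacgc
Pde4a: tggcacagctcgACGTCAggctggggagga
Pde4b: tgatttggctgcACGTCAattttctcatct
Adcy9: cggacccggcggTGACGTgcgcgggccgcg
Akap11: gaagcgcgcaagACGTCAgccgagagttcg
Rapgef3: gcttgaacccacTGACGTagtctcgggtag
The Prkar1a stretch lies at chr11:109650888-109650919 on the plus strand, and its element begins 49 bases upstream of a start site. Those of Pde4a (chr9:21184038-21184067) and Pde4b (chr4:102421508-102421537) are also on the plus strand, with the core beginning 51 and 35 bases upstream. Those of Adcy9 (chr16:4420505-4420534), Akap11 (chr14:78537065-78537094) and Rapgef3 (chr15:97767840-97767869) are on the minus strand, with the core beginning 24, 222 and 191 bases upstream.

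After 5 days with NECA no tested gene of the cAMP machinery passed the test, and the sizes of change were near those of all genes tested. The genes for the stimulatory and inhibitory G proteins and for the main cyclase (Adcy7) were within 1.2-fold of their DMSO mean. So were those for the main regulatory subunit of PKA (Prkar1a), the main phosphodiesterase (Pde1b) and CREB1. Others lay further off, among them Prkacb (0.81-fold), Pde7a (0.64-fold), Adcy3 (0.63-fold), Prkar1b (0.17-fold) and Pde7b (1.47-fold). Pde4c, Rapgef4 and Akap1 had too few counts to test. Of the 38 tested, edgeR's quasi-likelihood test called 0 as higher and 0 as lower (threshold 0.05, smallest adjusted p = 0.102), where 1.33% of the 13083 genes tested passed (0.352% as higher and 0.978% as lower). By DESeq2, 1 of the 38 passed, Akap13, against 2.29% of all genes. At an unadjusted p under 0.05 there were 8 of the 38 (21.1%), against 15.7% of all genes: Gnai2, Gnai3 and Akap13 above their level with DMSO, and Adcy3, Prkacb, Prkar1b, Pde4b and Pde7a below it. The log2 fold changes had a median of 0.02 (all genes, -0.0065), with 20 above 0 and 18 below, and their median size was 0.16 (all genes, 0.15).

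**Figure D1:**
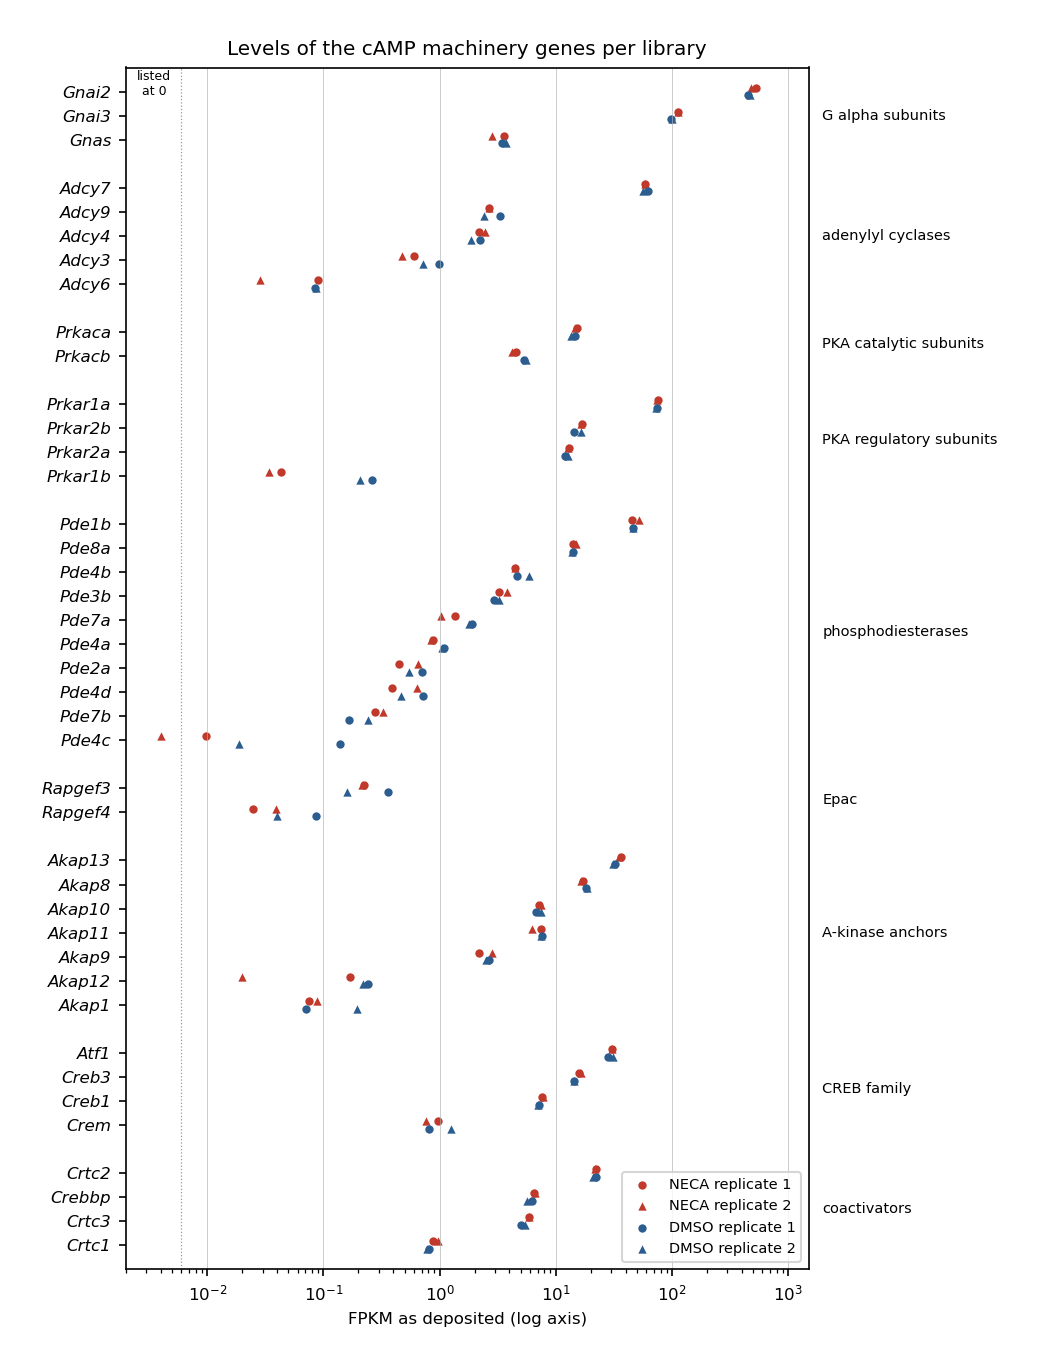
Deposited FPKM (fragments scaled to gene length and library size, log axis) of the 41 genes in each of the 4 libraries, grouped by role. On this axis the red NECA points and the blue DMSO points of most rows lie near each other. The groups still did not overlap for 52.6% of the 38 tested genes. Levels run from Gnai2 at 452 to 532 FPKM down to Pde4c, listed at 0 in NECA replicate 2.

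The intervals show which sizes of change the data leave possible. A 95% interval of the fold change lay within 1.5-fold in either direction for 26 of the 38 genes (68.4%; all genes tested, 53.3%). The 27 genes that averaged 10 CPM or more had log2 fold changes between -0.64 (Pde7a) and 0.19 (Pde3b), and 26 of their intervals lay within 1.5-fold. The 11 below 10 CPM ranged from -2.54 (Prkar1b) to 0.55 (Pde7b), and 0 of their intervals lay within 1.5-fold. Their intervals reached 0.39 to 1.67 to either side on the log2 scale. A difference of 1.5-fold or more in at least 1 direction lies inside the interval of each of these 11. For Prkar1b, which did not pass, the whole interval (-4.21 to -0.87) lay beyond a 1.5-fold decrease. Both NECA libraries lay above both DMSO libraries for 11 genes and below them for 9 (together 52.6% of the 38, against 46.7% of all genes tested), where 22.4% of all genes tested had the NECA libraries above and 24.3% had them below.

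**Figure D2:**
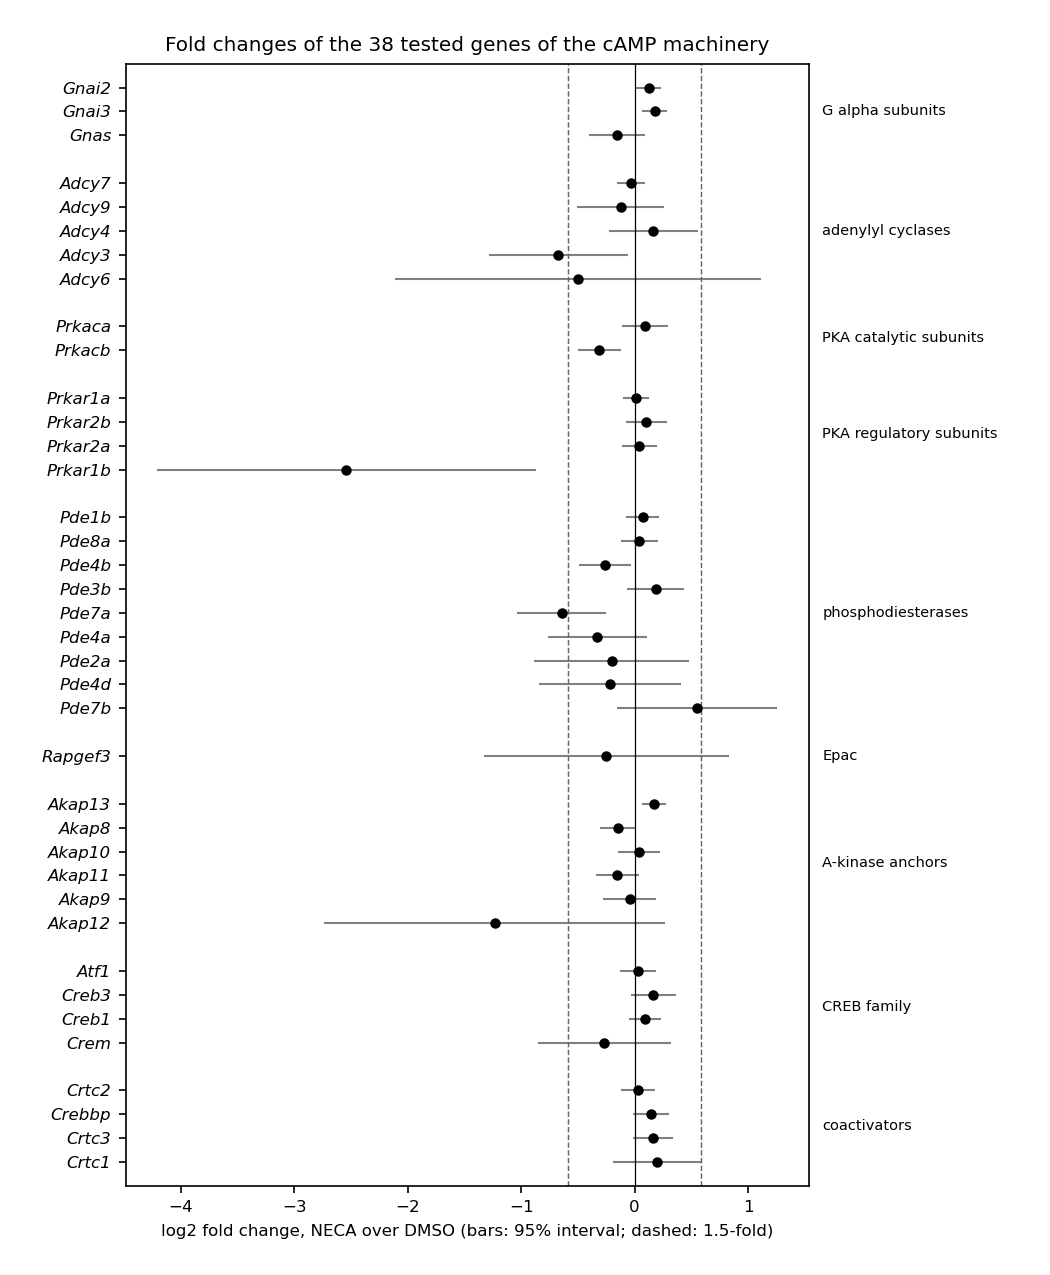
Log2 fold change of NECA over DMSO for the 38 tested genes, with 95% intervals as bars and dashed lines at 1.5-fold. The intervals of the abundant genes, such as Prkar1a (-0.10 to 0.13) and Adcy7 (-0.15 to 0.09), are short and lie near 0, while those of the rare genes Prkar1b, Akap12 and Adcy6 are long.

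**Figure D3:**
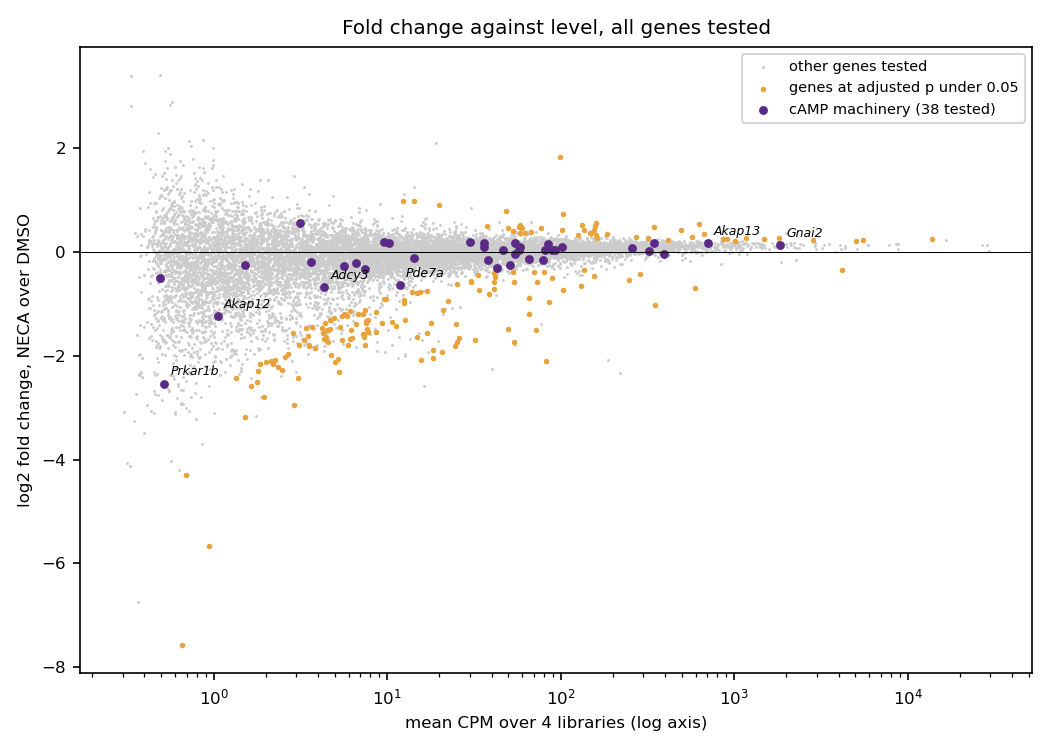
Log2 fold change of NECA over DMSO against the mean CPM of each gene (log axis) for all 13083 genes tested. The 38 genes of the cAMP machinery (purple) lie within the grey cloud, and the 174 genes at adjusted p under 0.05 (orange) lie mostly along its edges.

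Per length, Gnai2 was by far the most abundant of the 41 genes and Gnai3 followed it. Gnai2, the main inhibitory alpha subunit of leukocytes (ENSMUSG00000032562; chr9:107614125-107635367, GRCm38), had 532 and 484 FPKM in the NECA libraries and 452 and 474 FPKM in the DMSO libraries. Gnai3, its close relative, had 113 and 113 FPKM with NECA and 98.8 and 99.7 FPKM with DMSO, so that both NECA libraries lay above both DMSO libraries for either gene. Gnas, which encodes the stimulatory subunit, had 3.59 and 2.83 FPKM with NECA and 3.43 and 3.71 FPKM with DMSO, and its groups overlapped.

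Relative to DMSO the log2 fold change was 0.13 for Gnai2 (SE 0.05, adjusted p = 0.253), 0.18 for Gnai3 (SE 0.05, adjusted p = 0.112) and -0.16 for Gnas (SE 0.11, adjusted p = 0.576), and none of the 3 passed. Gnai2 passed when NECA replicate 2 was left out (0.19, adjusted p = 0.0174), and Gnas stood at 0.0036 without that library. Per length, Gnai2 and Gnai3 together exceeded Gnas 195 ± 22.2-fold with NECA and 158 ± 4.20-fold with DMSO (SD, n = 2 each). That ratio depends on the length used. The deposited FPKM divides Gnas by the union of its exons (11186 bases), and with the principal transcript (3903 bases) the ratios were 107 ± 11.7 with NECA and 87.0 ± 2.16 with DMSO. An exact permutation test of 2 libraries against 2 cannot go below p = 0.333, so ratios and shares of this kind are given without a test.

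Among the adenylyl cyclases, the enzymes that make cAMP, 1 isoform held nearly all the RNA. Adcy7, the cyclase known from blood cells (ENSMUSG00000031659; chr8:88272403-88329962), had 58.4 and 58.2 FPKM in the NECA libraries and 61.9 and 56.5 FPKM in the DMSO libraries. The 2 NECA libraries lay between the 2 DMSO libraries. Adcy7 made up 91.3% ± 0.08 of the summed FPKM of the 5 cyclases with NECA and 91.0% ± 0.99 with DMSO (SD, n = 2 each). Adcy9, which is only weakly responsive to forskolin, and Adcy4 followed with 2.66 and 2.66 FPKM and with 2.19 and 2.44 FPKM in the NECA libraries, against 3.34 and 2.41 FPKM and 2.22 and 1.88 FPKM in the DMSO libraries.

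The log2 fold change of Adcy7 was -0.03 (95% interval -0.15 to 0.09, adjusted p = 0.866), that of Adcy9 -0.12 (adjusted p = 0.812) and that of Adcy4 0.17 (adjusted p = 0.734). Adcy3, best known from olfactory cilia, had 3.73 and 2.97 CPM with NECA and 6.22 and 4.51 CPM with DMSO. Both NECA libraries were the lower ones, and the log2 fold change was -0.67 (SE 0.28, adjusted p = 0.269). Its counts are uncertain, because 1380 of its exon bases are shared with Cenpo on the opposite strand, which had a mean of 249 counts against 79.5 for Adcy3, and the use of strand in counting is not given. Adcy6 was near the lower limit, with 11 and 3 counts in the NECA libraries and 11 and 11 in the DMSO libraries.

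PKA is a tetramer of 2 regulatory and 2 catalytic subunits. Prkar1a, the widely expressed type I regulatory subunit and the gene with the full response element above (ENSMUSG00000020612; chr11:109649405-109669656), had 75.7 and 75.0 FPKM in the NECA libraries and 74.8 and 73.7 FPKM in the DMSO libraries. Prkar2b, a type II subunit, had 16.8 and 16.6 FPKM with NECA and 14.5 and 16.4 FPKM with DMSO. Prkar2a, the other type II subunit, had 13.0 and 12.8 FPKM with NECA and 12.0 and 12.9 FPKM with DMSO. Prkar1a therefore held 71.8% ± 0.08 of the regulatory RNA with NECA and 72.5% ± 1.56 with DMSO (SD, n = 2 each), and the log2 fold changes of the 3 genes ran from 0.01 to 0.10 with adjusted p of 0.618 to 0.938 (with library size alone as the scale, Prkar1a and Prkar2a stood at -0.058 and -0.029). Prkar2b held 15.9% ± 0.02 with NECA and 15.1% ± 1.12 with DMSO, shares that overlapped per length as deposited but not by the principal transcripts (means of 14.2% with NECA and 13.4% with DMSO).

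Prkar1b, the type I subunit best known from neurons, was rare. It had 3 and 2 counts (0.165 and 0.129 CPM) in the NECA libraries and 19 and 15 counts (0.993 and 0.797 CPM) in the DMSO libraries, without overlap. Its log2 fold change of -2.54 was the lowest of the 38 genes (SE 0.77, adjusted p = 0.122) and did not pass. Its counts are uncertain, since the gene model Gm15672 shares 341 of its exon bases on the same strand.

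The makeup of the catalytic subunits differed between the groups without overlap by each length used. Shares in other families also lay apart per length. Examples are Pde1b (64.5% and 66.4% with NECA, 63.7% and 63.2% with DMSO) and Crtc2 (76.6% and 76.4%, against 79.1% and 77.2%). Those of Adcy7 and Prkar1a overlapped. For the levels of single genes, 46.7% of all genes tested had groups that did not overlap. Prkaca, the main catalytic subunit of most tissues, had 37.8 and 36.6 CPM with NECA and 36.3 and 33.5 CPM with DMSO. Prkacb, the second catalytic subunit (ENSMUSG00000005034; chr3:146729574-146812990), had 40.0 and 37.0 CPM with NECA and 47.2 and 48.4 CPM with DMSO, so that both NECA libraries were lower. The log2 fold change was 0.09 for Prkaca (SE 0.09, adjusted p = 0.71) and -0.31 for Prkacb (SE 0.09, adjusted p = 0.102), and neither passed; Prkacb passed with library size alone as the scale (-0.38, adjusted p = 0.0479).

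Per length, Prkaca made up 76.9% and 77.7% of the 2 catalytic subunits in the NECA libraries and 73.0% and 70.9% in the DMSO libraries. The mean share was 5.34 percentage points higher with NECA. The size of either share depended on the length used (64.9% ± 0.74 with NECA and 58.2% ± 1.81 with DMSO by the principal transcripts), while the groups stayed apart. The summed regulatory RNA exceeded the summed catalytic RNA 5.42 ± 0.12-fold with NECA and 5.28 ± 0.24-fold with DMSO (SD, n = 2 each), and these ratios overlapped between the groups. By the principal transcripts they were 5.04 ± 0.14 with NECA and 4.74 ± 0.17 with DMSO and did not overlap.

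**Figure D4:**
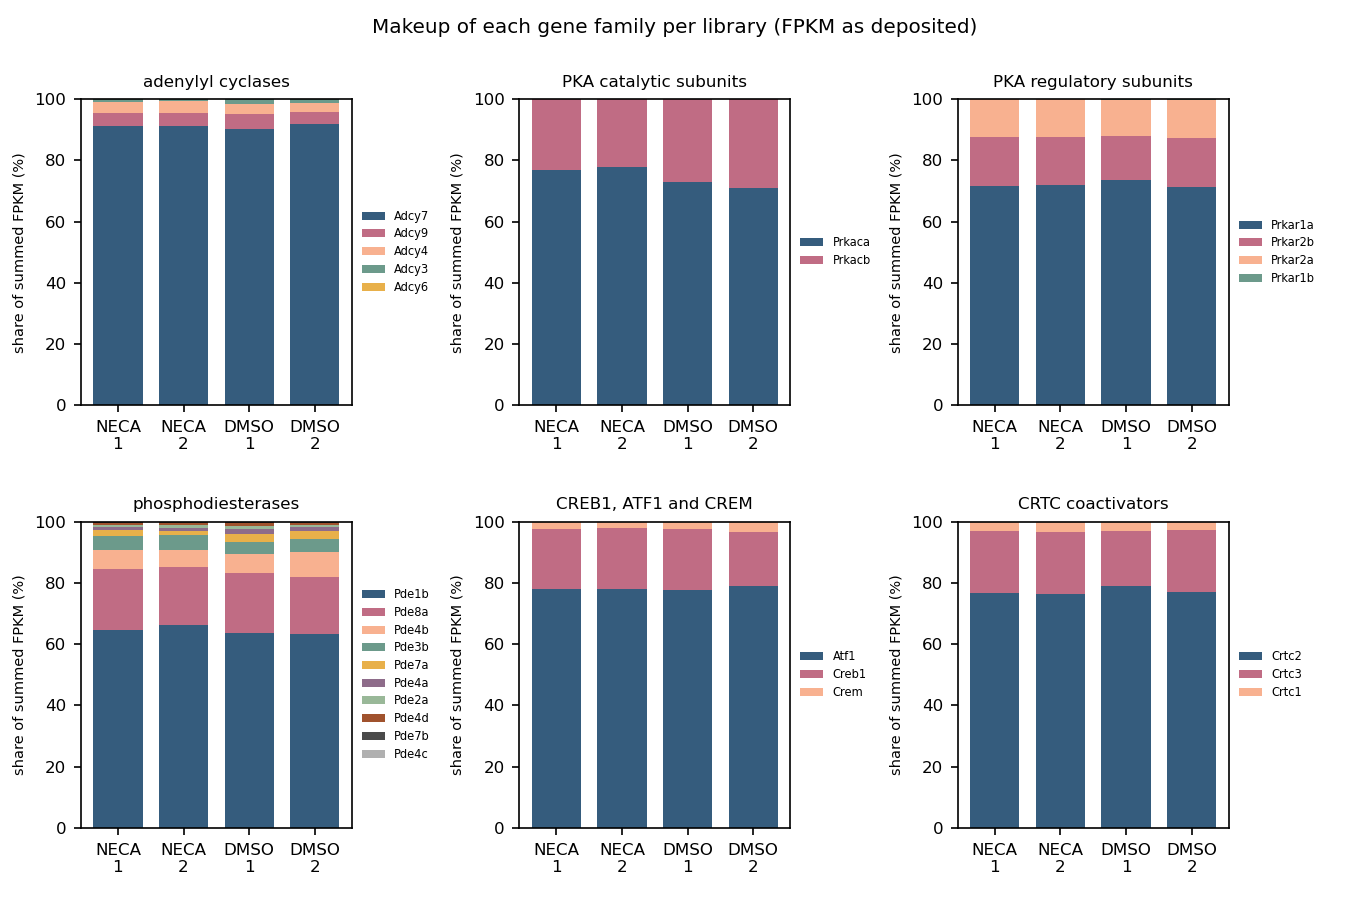
Share of each gene in the summed FPKM of its family, in percent, for each library. By this measure single isoforms dominate in all 4 libraries (Adcy7, Prkar1a, Pde1b, Atf1 and Crtc2). By summed counts Creb1 (51.6% with NECA, 50.3% with DMSO) stood above Atf1 (45.9% and 46.6%). The Prkaca share is higher in the NECA libraries (76.9% and 77.7%) than in the DMSO libraries (73.0% and 70.9%).

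The phosphodiesterases were led by a calcium-dependent enzyme and not by the PDE4 family, whose inhibitors are used as anti-inflammatory drugs. Pde1b, which is activated by calmodulin and cleaves both cAMP and cGMP (ENSMUSG00000022489; chr15:103503034-103530052), had 45.8 and 52.6 FPKM with NECA and 46.6 and 46.6 FPKM with DMSO. It held 65.5% ± 1.36 of the RNA of the 10 phosphodiesterases with NECA and 63.5% ± 0.36 with DMSO (SD, n = 2 each). Pde8a, an enzyme with high affinity for cAMP, followed with 14.2 and 14.8 FPKM with NECA and 14.2 and 13.8 FPKM with DMSO. Their log2 fold changes of 0.07 and 0.04 had adjusted p of 0.687 and 0.856, and both stood below 0 (-0.0013 and -0.029) with library size alone as the scale.

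Of the cAMP-specific PDE4 family, Pde4b, the form known from inflammatory cells, had 46.6 and 46.8 CPM in the NECA libraries and 49.4 and 62.6 CPM in the DMSO libraries. The NECA libraries were both lower, but the DMSO libraries differed more from each other than DMSO replicate 1 did from NECA. Its log2 fold change was -0.26 (SE 0.11, adjusted p = 0.254), and -0.08 without DMSO replicate 2. Pde4a had 6.76 and 6.40 CPM with NECA and 8.46 and 8.07 CPM with DMSO, again without overlap (-0.33, adjusted p = 0.475). Pde4d had 4.67 and 7.69 CPM with NECA and 8.67 and 5.58 CPM with DMSO, and its groups overlapped (-0.21, adjusted p = 0.794). The 4 PDE4 genes summed to 5.70 and 5.93 FPKM in the NECA libraries and 6.62 and 7.44 FPKM in the DMSO libraries. Pde4c had 1 and 0 counts with NECA and 15 and 2 counts with DMSO and was not tested. Its count of 0 in NECA replicate 2 allows up to 3 counts, or 0.189 CPM of that library's total (counting error only).

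Pde7a, another cAMP-specific enzyme, known from T cells (ENSMUSG00000069094; chr3:19223108-19311322), had 10.5 and 7.95 CPM in the NECA libraries and 14.9 and 14.0 CPM in the DMSO libraries. Both NECA libraries were lower, and the log2 fold change of -0.64 (SE 0.18, 95% interval -1.04 to -0.25, adjusted p = 0.102) was the lowest among the genes with at least 10 CPM. It did not pass with all 4 libraries; it passed without NECA replicate 1 (-0.86, adjusted p = 0.00662) and with no filter on low counts (-0.65, adjusted p = 0.0183). The summed markers of T and NK cells, given above, were also lower in both NECA libraries, though 0 of the 5 tested passed. Those of macrophages, B cells and erythroid cells were lower too. The part of these cells in this value was not tested. Pde7b, its relative, stood the other way, with 3.46 and 4.07 CPM with NECA and 2.09 and 3.03 CPM with DMSO (0.55, SE 0.32, adjusted p = 0.449). Pde3b, which cGMP inhibits, had 29.4 and 34.8 CPM with NECA and 26.8 and 29.6 CPM with DMSO (0.19, adjusted p = 0.48). Pde2a, which cGMP stimulates, had 2.75 and 4.01 CPM with NECA and 4.39 and 3.35 CPM with DMSO (-0.20, adjusted p = 0.83). Its counts are uncertain beside the overlapping gene model Gm45837.

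Epac proteins carry the cAMP signal to the small GTPase Rap1 without PKA, and their RNA was scarce. Rapgef3 (Epac1) had 26 and 21 counts in the NECA libraries and 44 and 19 in the DMSO libraries, a log2 fold change of -0.25 (SE 0.49, adjusted p = 0.878). Rapgef4 (Epac2) had 3 and 4 counts with NECA and 11 and 5 with DMSO and was not tested. The counts of Rapgef3 overlapped between the groups, and a change as large as 1.5-fold was not detectable at its depth.

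A-kinase anchoring proteins hold PKA at particular places in the cell. Akap13, which is also an activator of the GTPase RhoA (ENSMUSG00000066406; chr7:75455534-75754609), was the most abundant, with 759 and 736 CPM in the NECA libraries and 680 and 648 CPM in the DMSO libraries. Both NECA libraries were higher, by 1.13-fold in the mean (log2 0.17, SE 0.05). Its adjusted p was 0.109 by edgeR and 0.0421 by DESeq2, and with no filter on low counts it passed in edgeR too (adjusted p = 0.0209).

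Akap8, a nuclear anchor, had 63.3 and 61.1 CPM with NECA and 68.1 and 69.4 CPM with DMSO (-0.14, adjusted p = 0.379). Akap11 had 81.4 and 68.2 CPM with NECA and 83.4 and 83.0 CPM with DMSO (-0.15, adjusted p = 0.439). Both had lower values in the 2 NECA libraries and neither passed. Akap9, an anchor at the centrosome and Golgi, and Akap10, a mitochondrial anchor, overlapped between the groups (47.1 and 60.4 against 57.2 and 53.3 CPM, and 46.5 and 48.1 against 44.2 and 47.9 CPM, NECA against DMSO). The counts of Akap9 are uncertain where 166 exon bases are shared with Cyp51 on the opposite strand.

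Akap12, a scaffold at the plasma membrane, showed how far the NECA libraries could differ. It had 20 and 2 counts in the NECA libraries and 30 and 27 in the DMSO libraries. Its log2 fold change was -1.23 with all libraries (SE 0.69, adjusted p = 0.426), -3.47 without NECA replicate 1 (adjusted p = 0.0263) and -0.45 without NECA replicate 2. The markers of B cells and of erythroid cells were likewise much lower in NECA replicate 2 than in NECA replicate 1, and their part in this value was not tested. Akap1, a mitochondrial anchor, had 6 and 6 counts with NECA and 6 and 16 with DMSO and was not tested.

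The transcription factors at the end of the pathway were present and stood close to each other in the 2 groups. Atf1, the close relative of CREB1 that binds the same element, had 30.6 and 30.4 FPKM in the NECA libraries and 28.3 and 31.2 FPKM in the DMSO libraries. Creb1 itself (ENSMUSG00000025958; chr1:64532645-64604548) had 7.57 and 7.73 FPKM with NECA and 7.25 and 7.05 FPKM with DMSO. Crem, whose inducible form represses the pathway, had 0.961 and 0.769 FPKM with NECA and 0.813 and 1.27 FPKM with DMSO, and these values overlapped.

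The log2 fold change was 0.03 for Atf1 (95% interval -0.13 to 0.19, adjusted p = 0.909), 0.09 for Creb1 (-0.05 to 0.23, adjusted p = 0.566) and -0.27 for Crem (-0.86 to 0.32, adjusted p = 0.711). Without DMSO replicate 2 Crem stood at 0.09. The counts join all transcripts of Crem, so the inducible form could not be told from the others. Per length as deposited, Atf1 held 78.2% ± 0.01 of the RNA of Creb1, Atf1 and Crem with NECA and 78.4% ± 0.80 with DMSO (SD, n = 2 each). That share depends on the length used, since the deposited FPKM divides Creb1 by 13742 exon bases (principal transcript, 5009). By summed counts Atf1 held 45.9% with NECA and 46.6% with DMSO, below Creb1 (51.6% and 50.3%). Creb3, an endoplasmic reticulum factor that shares the name but not the control by PKA, had 37.7 and 39.0 CPM with NECA and 34.3 and 34.2 CPM with DMSO (0.16, adjusted p = 0.417). Its counts are uncertain, because 360 of its exon bases lie opposite Tln1, which had a mean of 39484 counts against 648 for Creb3.

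The 4 coactivators all had log2 fold changes above 0, and none passed (adjusted p = 0.351 to 0.887). Crtc2, the CRTC protein known best from the liver, was the most abundant at 22.3 and 22.0 FPKM with NECA and 22.1 and 21.0 FPKM with DMSO. Its log2 fold change was 0.03, and -0.04 with library size alone as the scale. Crtc3 had 58.4 and 57.4 CPM with NECA and 49.7 and 53.6 CPM with DMSO (0.16, SE 0.08). Crebbp, which encodes the histone acetyltransferase CBP, had 88.3 and 90.0 CPM with NECA and 84.2 and 77.1 CPM with DMSO (0.14, SE 0.07). Crtc1, the form best known from the brain, had 9.78 and 10.7 CPM with NECA and 9.14 and 8.71 CPM with DMSO (0.20, SE 0.18). For Crtc1, Crtc3 and Crebbp both NECA libraries were above both DMSO libraries, as they were for 22.4% of all genes tested. Of the 13083 genes tested, 6363 had a log2 fold change above 0. With library size alone as the scale the median gene shifted by -0.07.

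Other genes of the pathway gave the same count. A list of 48 further genes (rarer cyclases, inhibitory and olfactory G proteins, PKA inhibitors, other phosphodiesterases and anchors, Rap1 and its regulators, CREB-like factors and the salt-inducible kinases) held 28 with enough counts to test, of which 0 were higher and 0 lower, where 1.33% of all genes tested passed. At an unadjusted p under 0.05 by edgeR there were 5, or 17.9% against 15.7% of all genes (Adcy2, Rap1gap2, Ep300 and Crebrf above their level with DMSO, and Sik1 below it). By DESeq2 there were 2 (Ep300 and Sik1), against 2.29% of all genes. Adcy2, Crebrf and Sik1 are named after their values were seen. The median log2 fold change of the 28 was 0.07. By CPM, the most abundant were Rap1b, the GTPase that Epac activates, Rap1gap2, which switches Rap1 off, and Ep300, the acetyltransferase closest to CBP.

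Ep300 had 394 and 369 CPM in the NECA libraries and 329 and 322 CPM in the DMSO libraries. Both NECA libraries were higher; the log2 fold change was 0.23 (SE 0.06, adjusted p = 0.0709), and it passed by DESeq2 (adjusted p = 0.0131), with no filter on low counts, with the replicate block and without NECA replicate 2. Rap1b had 526 and 481 CPM with NECA and 450 and 481 CPM with DMSO (0.11, adjusted p = 0.386). Rap1gap2 had 433 and 447 CPM with NECA and 410 and 395 CPM with DMSO (0.13, adjusted p = 0.246).

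Genes that CREB is known to drive were counted beside the machinery, and 5 of them fell. Of a list of 32 such genes, 19 had enough counts to test, and 0 were higher, 5 lower and 14 did not pass by edgeR's test, where 0.978% of all genes tested were lower. The 5 were Fos, Fosb and Egr1, transcription factors of the immediate-early response, Dusp1, the phosphatase that switches off MAP kinases, and Thbs1, the secreted protein thrombospondin 1. The 19 had a median log2 fold change of -0.32, with 16 below 0, against -0.0065 for all genes tested. Both NECA libraries lay below both DMSO libraries for 11 of the 19 (24.3% of all genes tested) and above them for 1 (22.4%). Many of these genes are also driven by other signals, such as serum response factor and MAP kinases, and the list is not specific to CREB. The list was also chosen with earlier results of these data known, so these counts and shares describe it and do not test it.

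Fos (ENSMUSG00000021250; chr12:85473890-85477273) had 80.3 and 74.1 CPM in the NECA libraries and 115 and 142 CPM in the DMSO libraries. It fell by 0.73 on the log2 scale (SE 0.10, adjusted p = 0.00359). Egr1 had 6.65 and 5.30 CPM with NECA and 15.3 and 35.5 CPM with DMSO. The 2 DMSO libraries differed more than 2-fold, and both stood above both NECA libraries. Egr1 fell by 2.08 (SE 0.32, adjusted p = 0.00978). Leaving out DMSO replicate 2 gave -1.34, and leaving out DMSO replicate 1 gave -2.56. Fos and Egr1 passed as lower under each of the 9 other settings tried.

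Fosb had 1.81 and 2.20 CPM with NECA and 5.75 and 5.10 CPM with DMSO and fell by 1.44 (SE 0.29, adjusted p = 0.0372). Dusp1 had 58.9 and 63.5 CPM with NECA and 76.8 and 82.4 CPM with DMSO and fell by 0.38 (SE 0.08, adjusted p = 0.0372). Neither of the 2 passed when a DMSO library was left out (adjusted p = 0.18 and 0.104 for Fosb, and 0.115 and 0.18 for Dusp1, without DMSO replicates 1 and 2). Thbs1 had 3918 and 3472 CPM with NECA and 4548 and 4904 CPM with DMSO and fell by 0.36 (SE 0.06, adjusted p = 0.01); without DMSO replicate 2 its adjusted p was 0.0696. Leaving out DMSO replicate 2 gave 2 lower genes in the list, and leaving out NECA replicate 1 gave 9.

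By CPM, the most abundant listed targets that did not pass were Mcl1, Rgs2 and Junb. Mcl1, a survival protein of neutrophils, had 634 and 603 CPM with NECA and 597 and 644 CPM with DMSO. Rgs2, a brake on G protein signals, had 162 and 149 against 151 and 157 CPM. Junb, a partner of Fos, had 138 and 145 against 144 and 182 CPM. The groups of Mcl1, Rgs2 and Junb overlapped, and their log2 fold changes were -0.0045, 0.01 and -0.20. Cebpb, named after its values were seen, had a higher mean FPKM (100) than Junb (66.1) and Rgs2 (42.7). It was lower in both NECA libraries (140 and 130 against 149 and 185 CPM) and did not pass (-0.31, adjusted p = 0.12 by edgeR). Its counts are uncertain over 312 bases shared with Tmem189 on the opposite strand. The reads of Junb are uncertain over 173 bases shared with Prdx2 on the opposite strand. The macrophage markers, 11 of 12 lower, moved in the same direction as Fos, Fosb, Egr1, Dusp1 and Thbs1, and their part in these values was not tested.

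**Figure D5:**
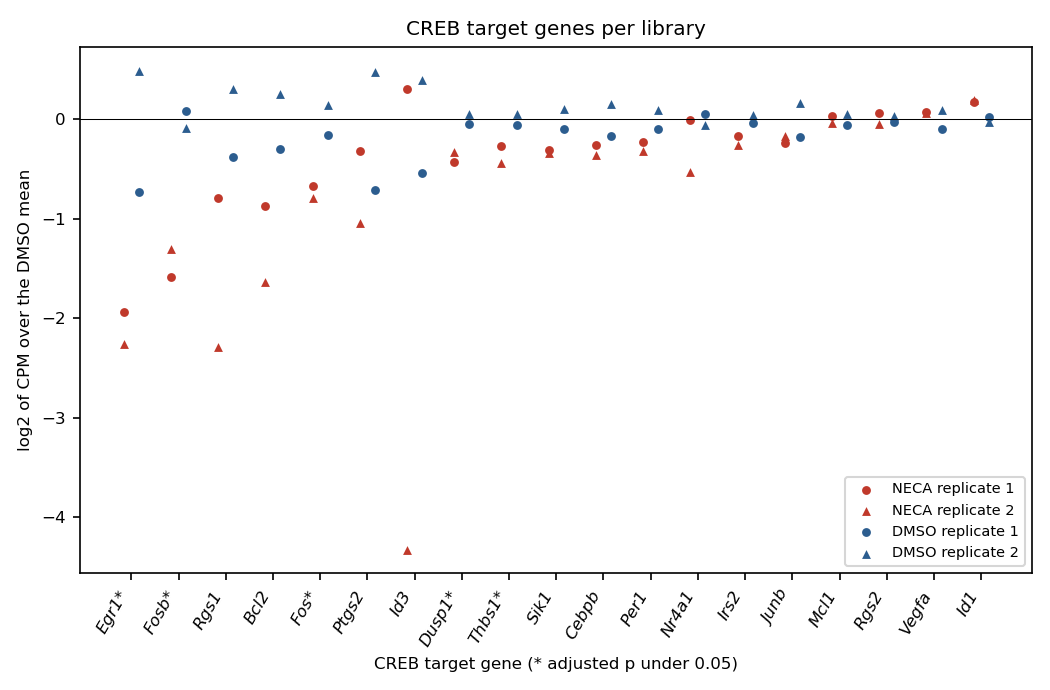
Log2 of the CPM of each library over the DMSO mean for the 19 tested CREB target genes, ordered by fold change. The NECA points of Egr1, Fosb, Fos, Dusp1 and Thbs1 (starred, adjusted p under 0.05) lie below both DMSO points, and those of Mcl1 and Rgs2 overlap with them.

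Promoter windows were found for 24 of the 32 target genes (36 windows; Arg1, Egr1, Gem, Id1, Il10, Rgs1, Sik1 and Thbs1 had no entry). The core stood in 17 windows (47.2%) and the full element in 3 (8.33%), against 7.51% and 1.79% of all windows. The list was made of genes that CREB is known to drive, so these shares describe it and test nothing. Of the 5 lower genes, Fos and Dusp1 held the core, and Dusp1 also the full element. These stretches are shown because they are the promoter sites of called genes; capitals mark the element:
Fos: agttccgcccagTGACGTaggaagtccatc
Dusp1, nearer site: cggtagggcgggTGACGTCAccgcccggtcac
Dusp1, farther site: ctcctaggccgaTGACGTctttgcttttgg
The Fos stretch lies at chr12:85473812-85473841 on the plus strand, and its core begins 66 bases upstream of the start site. The Dusp1 stretches lie at chr17:26508596-26508627 and chr17:26508646-26508675 on the minus strand, and their elements begin 143 and 191 bases upstream of start sites. Among tested genes of the machinery and the lists beside it, the full element was found before Prkar1a, Dusp1, Rap1b and Creb5. By edgeR's test their log2 fold changes were 0.01 (adjusted p = 0.938), -0.38 (adjusted p = 0.0372), 0.11 (adjusted p = 0.386) and 0.39 (adjusted p = 0.857). Creb5 is named for its element, after its values were seen. A link between element and change was not tested.

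At the top of the pathway the adenosine receptor genes were low. Adora3, the most abundant, had 7.03 and 8.01 CPM in the NECA libraries and 8.41 and 8.66 CPM in the DMSO libraries (-0.18, adjusted p = 0.727), with counts uncertain beside Tmigd3. The receptors that couple to the stimulatory protein had 15 and 10 counts with NECA and 17 and 17 with DMSO (Adora2a; -0.28, adjusted p = 0.883), and 3 and 1 against 14 and 11 (Adora2b; -2.41, adjusted p = 0.192). Adora1 had 9 and 5 counts with NECA and 11 and 5 with DMSO and was not tested.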

How the data were processed

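RNA of 4 libraries (2 NECA, 2 DMSO) was analysed. Each deposited table gives, per the file headers, read counts (whole numbers) and FPKM for every Ensembl gene. HISAT, StringTie and edgeR are named, without versions, in the submitters' processing notes with the builds mm10 and GRCm38. How reads were counted (program, strand, multiple hits) is not given in the sources used here. Over 9004 genes the deposited FPKM equalled counts over gene length, times 1 scale per library (largest relative departure 4.6e-09). Of the identifiers 54409 matched the reference names, and 27 symbols turned into dates were restored. Positions and exon overlaps are from GENCODE M21 on GRCm38.

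Counts were tested as deposited with edgeR 4.0.16 in R 4.3.3 (filterByExpr, minimum count 10; TMM; quasi-likelihood test; Benjamini-Hochberg over the 13083 genes tested; threshold 0.05), a procedure first tested on simulated data. SE is the log2 fold change over the square root of F, and 95% intervals from it are approximate. CPM uses TMM-scaled library sizes; levels between genes use FPKM. DESeq2 1.42.0, other scalings, no filter, a replicate block and leaving out each library were the alternatives. The 41 genes and the lists beside them were chosen with earlier results of these data known. All of the 41 are accounted for. Of the other lists the text names each called gene, up to 3 others of highest CPM, and each adenosine receptor. A few more are marked as named after their values were seen. Replicates were not copies of 1 library (chi-square per degree of freedom 5.39 for NECA and 6.81 for DMSO). Of 8 dendritic cell markers 4 were tested and 2 were lower. Of 8 markers of basophils, mast cells and eosinophils 7 were tested and 1 was lower. Of 6 platelet markers 3 were tested and 0 were lower. These lists had 0 markers higher. Of 12 neutrophil markers 2 were higher and 0 lower.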

Additional observations from a re-analysis of the deposited data

How the results depend on the processing

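Over all genes, 174 passed (46 higher, 128 lower). With library size alone the count was 238, split as 21 higher and 217 lower, and the median gene shifted by -0.07 on the log2 scale. It was 875 with no filter on low counts, 300 by DESeq2, 421 with the replicate block, and 53 to 821 with 1 library left out. Of the cAMP machinery, 0 passed; the count was 1 with library size alone (Prkacb), 2 with no filter (Akap13, Pde7a), 1 by DESeq2 (Akap13), 0 with DESeq2 size factors or the replicate block, and 0 to 2 with 1 library left out. Of the 48 other pathway genes 0 passed, against 1 with library size alone, 2 with no filter, 2 by DESeq2, 2 with the replicate block, and 0 to 1 with 1 library left out. Of the CREB targets 5 passed, 5 to 7 under the settings with all libraries, 4 without Thbs1 and Sik1 (an alternative chosen after seeing the data), and 2 to 9 with 1 library left out. The difference in the share of Prkaca was 5.34 percentage points per length and 6.99 by summed counts.

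The labels do not say that replicate numbers pair the libraries, and the deviations of same-numbered libraries correlated at 0.021, so the replicate block is an alternative only. With 1 library left in a group, that library is assumed to vary like those of the other group.

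Among the cAMP machinery and the called or most abundant genes of the 2 lists beside it, values changed sign with library size alone or with 1 library left out, and not under the other settings. With library size alone the values were -0.058 for Prkar1a, -0.061 for Rgs2, -0.043 for Atf1, -0.040 for Crtc2, -0.029 for Prkar2a and Pde8a, -0.033 for Akap10 and -0.0013 for Pde1b. With 1 library left out they ran from -0.61 to 0.15 for Pde4d, -0.49 to 0.050 for Pde2a, -0.23 to 0.13 for Akap9, -0.72 to 0.47 for Rapgef3, -1.55 to 0.059 for Adcy6, -0.34 to 0.0036 for Gnas, -0.33 to 0.14 for Adcy9, -0.090 to 0.042 for Adcy7, -0.55 to 0.089 for Crem, -0.035 to 0.10 for Atf1, -0.031 to 0.17 for Pde1b, -0.012 to 0.10 for Akap10, -0.0018 to 0.10 for Prkar2a, -0.0023 to 0.077 for Crtc2, -0.053 to 0.055 for Mcl1 and -0.046 to 0.066 for Rgs2. The cause was not tested. Depth limits most the 11 genes below 10 CPM.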
